A study of Mus musculus with 15 samples.

Results

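The genes described here encode the machinery that reads the genome: the subunits of RNA polymerases I, II and III (Pol I, II and III), the general transcription factors, and Mediator. They were chosen by name, as every listed gene whose symbol starts with Polr1, Polr2, Polr3, Gtf2 or Gtf3, or with Taf or Med followed by a digit. The rule found 103 of the 14392 genes of the expression table, and no measured value entered it. By complex, 28 genes encode polymerase subunits, 13 encode the Pol II factors TFIIA, B, E, F and H, 3 belong to the TFII-I family, 7 encode TFIIIA or TFIIIC, 22 are TAF genes and 30 encode Mediator subunits.

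Pol I transcribes the large ribosomal RNA genes, Pol II transcribes messenger RNA genes, and Pol III transcribes 5S ribosomal RNA, transfer RNA and other small RNA genes. General factors bring a polymerase to its promoter and open the DNA, while Mediator links activators bound elsewhere to Pol II. A mouse zygote lives on RNA and protein stored in the oocyte, and the major wave of zygotic genome activation (ZGA) takes place at the 2-cell stage, so the RNAs of this machinery are partly a maternal store and partly products of the new embryonic genome.

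The study asked how maternal loss of Usp16, a deubiquitinase of histone H2A, affects this transition. RNA-seq was performed on zygotes and 2-cell embryos of both genotypes, with 2 libraries per group and 10 pooled embryos per library. WT embryos came from Usp16+/+ mothers, and cKO embryos came from Usp16 fl/fl;Gdf9-Cre mothers, all of them on a C57BL/6 background. The mothers were superovulated at 21 to 23 days of age and mated with WT males, so a cKO embryo lacked maternal Usp16 and carried an intact paternal allele. Gdf9-Cre acts in oocytes. Zygotes were taken 28 h after hCG, and embryos were cultured in KSOM.

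Levels are FPKM, in which the fragments of a gene are divided by its exon length and by the mapped fragments of the library. Levels of different genes are compared only roughly, because differences between libraries still moved with transcript length, as given below. The authors set every value under 1 to 1, here called the floor, so a fold against a group at the floor is a lower bound. FPKM is also a share of the mapped RNA of a pool of whole embryos, so fewer living cells and less RNA per cell cannot be told apart in it. The table holds no read counts, and the depth is unknown.

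Usp16 itself, the deleted gene, was at 184 and 187 FPKM in the WT zygote libraries and at 16.8 and 22.0 in the cKO zygote libraries. At the 2-cell stage it was at 168 and 183 in WT and at 168 and 84.8 in cKO embryos, in which the paternal allele is intact. Exons of Usp16 overlap those of Cct8 on the other strand in the mm9 annotation. All 12 oocyte and early embryo markers were above the floor in every group. The 7 listed 2-cell markers summed to 341 to 370 FPKM in WT zygotes, 338 to 359 in cKO zygotes, 720 to 933 in WT 2-cell embryos and 485 to 511 in cKO 2-cell embryos. Nearly all of the zygote sums was Klf17, at 361 and 334 in WT and 348 and 330 in cKO zygotes. Between the 2-cell groups Zscan4c, Zscan4d, Zscan4f, Zfp352 and Tdpoz4 were lower in cKO and Klf17 overlapped. Eif1a was higher, at 118 and 139 in cKO against 73.8 and 70.3 in WT. Of 12 cumulus cell markers only Cyp19a1, Foxl2 and Tnfaip6 were listed, and their sum was 24.3 to 28.7 in WT zygotes, 24.6 to 24.8 in cKO zygotes, 4.38 to 10.3 in WT 2-cell embryos and 3 to 3.32 in cKO 2-cell embryos. Of 6 sperm markers 4 were listed, with sums of 16.5 to 23.1, 18.7 to 19.7, 7.28 to 11.4 and 4 to 4.97 in the same order. A marker at the floor adds 1 to its sum, so a sum of 3 cumulus or 4 sperm markers at 3 or 4 has all of them at the floor. In zygotes nearly all of the signal was Cyp19a1, at 22.3 to 26.7, and Prm2, at 13.5 to 20.1. The part of these other RNAs in the stage and genotype differences was not tested. The libraries of cKO 2-cell embryos stood apart from the rest. Replicate 2 had a summed FPKM of 770989 against 547752 to 593317 elsewhere, and 1912 genes (13.3%) differed by more than 3-fold between the 2 cKO 2-cell replicates, among them 19 of the 103 genes described here. None of the 103 differed so far between replicates in any other group.

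The promoters of 4 genes are shown because these genes rose or fell most from the WT zygote to the WT 2-cell embryo. Each sequence runs from 250 bases before to 50 bases after the RefSeq start on GRCm38.p6, 5′ to 3′ along the gene, and capitals mark matches to 1 of 5 searched motifs on either strand. Med29 (chr7:28392641-28392940, minus strand) and Polr1c (chr17:46247996-46248295, minus strand) rose. Gtf2b (chr3:142764997-142765296, plus strand) and Gtf2a1l (chr17:88668410-88668709, plus strand) fell.
Med29: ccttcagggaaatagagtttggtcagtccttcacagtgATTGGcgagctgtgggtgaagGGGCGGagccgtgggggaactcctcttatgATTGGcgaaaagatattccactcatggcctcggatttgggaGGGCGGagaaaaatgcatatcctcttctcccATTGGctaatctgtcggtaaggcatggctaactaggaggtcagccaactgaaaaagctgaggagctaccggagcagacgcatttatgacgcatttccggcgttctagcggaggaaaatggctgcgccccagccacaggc
Polr1c: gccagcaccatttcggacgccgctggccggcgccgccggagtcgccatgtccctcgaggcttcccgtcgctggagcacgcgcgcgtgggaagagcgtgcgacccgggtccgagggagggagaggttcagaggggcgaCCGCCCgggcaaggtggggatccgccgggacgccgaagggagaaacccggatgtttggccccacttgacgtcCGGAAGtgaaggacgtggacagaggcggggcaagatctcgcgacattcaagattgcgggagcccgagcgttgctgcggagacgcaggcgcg
Gtf2b: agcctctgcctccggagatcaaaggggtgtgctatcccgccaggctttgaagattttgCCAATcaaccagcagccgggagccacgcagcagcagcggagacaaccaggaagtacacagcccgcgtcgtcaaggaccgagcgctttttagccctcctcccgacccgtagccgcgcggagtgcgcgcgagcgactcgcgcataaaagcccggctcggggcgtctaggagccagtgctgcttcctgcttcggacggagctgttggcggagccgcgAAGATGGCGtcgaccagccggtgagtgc
Gtf2a1l: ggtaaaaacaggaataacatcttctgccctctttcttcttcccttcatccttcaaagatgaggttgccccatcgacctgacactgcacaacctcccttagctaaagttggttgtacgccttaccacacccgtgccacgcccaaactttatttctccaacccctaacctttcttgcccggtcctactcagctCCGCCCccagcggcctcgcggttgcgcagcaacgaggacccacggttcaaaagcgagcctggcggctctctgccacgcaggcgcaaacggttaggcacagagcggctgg
The window of Polr1c holds a GC box (GGGCGG) 113 bases and an ETS motif (CGGAAG) 41 bases before the start. The window of Med29 holds CCAAT boxes starting 212, 161 and 89 bases and GC boxes starting 191 and 120 bases before the start. That of Gtf2b holds a CCAAT box at 192 bases before the start and AAGATGGCG, the YY1 motif, starting 22 bases after the start, and that of Gtf2a1l holds a GC box at 59 bases before the start. No 2 of these matches overlap.

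RefSeq windows were found for 88 of the 103 genes. CGGAAG was present in 50.0% of these genes, in 31.6% of the genes of the expression table and in 18.8% of all genes with a window. AAGATGGCG was present in 5.68%, 3.15% and 1.64%, and GGGCGG in 67.0%, 63.0% and 38.2%. CCAAT was present in 33.0%, 43.6% and 41.1%, and TATAAA in 14.8%, 10.3% and 15.7%. CGGAAG was held by 17 of the 39 genes with a window that rose in WT embryos and by 5 of the 12 that fell. These are matches of letters and no measure of binding.

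Within a complex, levels in WT 2-cell embryos spanned a wide range although the subunits are thought to assemble in fixed numbers. Transcript lengths differed as well. The longest coding transcript had 900 bases for Polr2j, 6740 for Polr2a, 1230 for Taf9, 1933 for Taf7l and 8054 for Taf1. The part of length in these ranges was not tested. Among Pol II subunits, the small subunit Polr2j was at 1367 and 1353 FPKM, while Polr2a, the largest subunit with the repeated tail that is phosphorylated during transcription, was at 8.89 and 6.50. Its partner in the catalytic centre, Polr2b, was at 51.1 and 38.5. Among the subunits common to all 3 polymerases Polr2f was highest, at 879 and 847. The largest Pol I subunit, Polr1a, was at 4.36 and 6.58, and the largest Pol III subunit, Polr3a, was at 23.2 and 17.2. TFIID had its highest RNA in Taf9, at 1127 and 971, and its lowest in Taf7l, at 6.04 and 5.20, close to Taf1, the largest TFIID subunit, at 4.59 and 6.71. In the Mediator kinase module Med12 was at 1.31 and 1.00 and its paralog Med12l at 1.05 and 1.56, both close to the floor, whereas Med13 was at 12.02 and 12.3 and Med13l at 8.01 and 8.25.

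**Figure D1:**
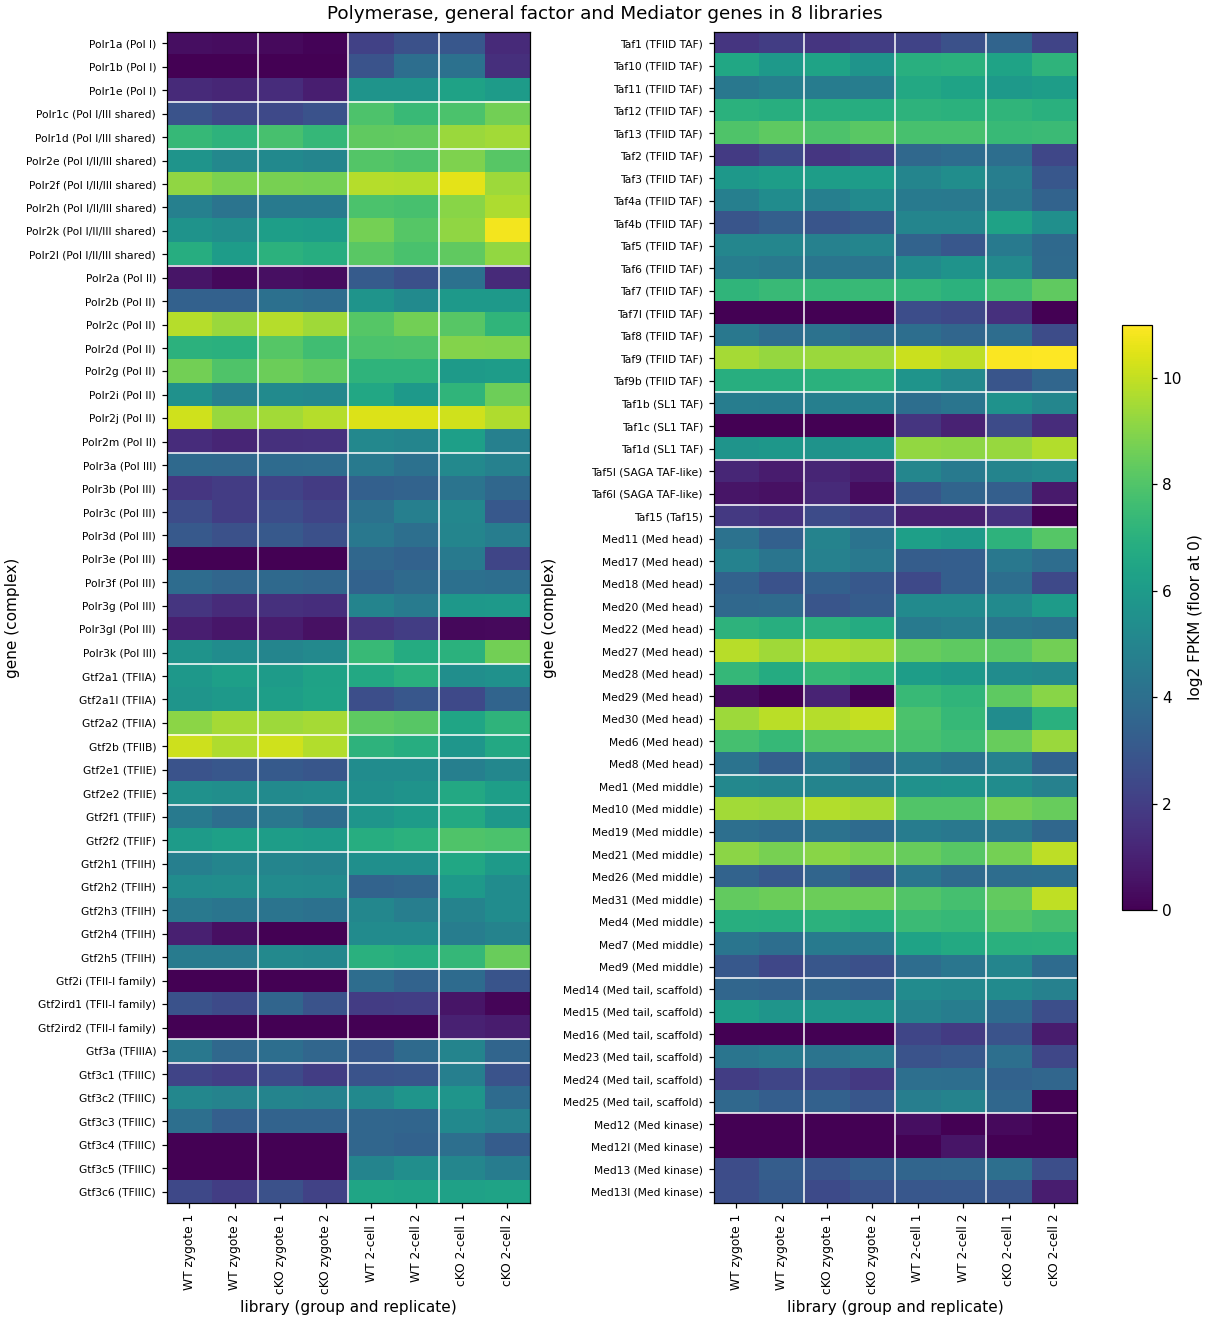
Colour gives log2 FPKM of 102 of the 103 genes (rows, grouped by complex) in the 8 libraries (columns, by group and replicate), and the darkest cells are at the floor. Zygote libraries hold 11 or 12 genes at the floor, while WT 2-cell libraries hold 1 and 2, and cKO 2-cell libraries hold 1 and 5. Of all 14392 genes, 4242 to 4747 are at the floor in zygote libraries. The WT 2-cell libraries hold 1642 and 1716 of them at the floor, and the cKO 2-cell libraries 3684 and 4240.

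In zygotes, 10 genes were at the floor in all 4 libraries and above it in both WT 2-cell libraries, or in 1 of them for Med12. They were the Pol I core subunit Polr1b, the Pol III subunit Polr3e, the TFIIIC subunits Gtf3c4 and Gtf3c5, the SL1 subunit Taf1c, Gtf2i, Taf7l, Med12, Med12l and the Mediator tail subunit Med16. Gtf2ird2 was at the floor in WT 2-cell embryos too, and Med12l was at the floor in both cKO 2-cell libraries as well. Genes under 1 in all samples had been removed, so all of these genes are listed only through 2-cell libraries. None of them could be called lower than in zygotes. Polr1b, Polr3e, Gtf3c4, Gtf3c5, Gtf2i, Taf7l and Med16 are in the higher counts below, so their calls are no independent sign of a rise. Such genes are in the shares of all genes too.

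From the WT zygote to the WT 2-cell embryo, most polymerase subunits rose, while TFIIB and a germ-cell form of TFIIA fell. In all, 46 of the 103 genes (44.7%) were higher in 2-cell embryos by limma at an adjusted p under 0.05, where 34.2% of all 14392 genes were called. Another 14 (13.6%) were lower, against 15.5% of all genes. By the study's rule of means differing more than 3-fold, 37 genes (35.9%) were higher, against 26% of all genes, and 6 (5.83%) were lower, against 8.78%. Both 2-cell libraries lay above both zygote libraries for 68 genes (66.0%), against 49.4%, and below them for 24 (23.3%), against 26.4%. The median log2 difference of (FPKM + 1) was 0.71 over the 103 genes and 0.27 over all genes as deposited. Scaling each library by the median, over genes, of its ratio to the mean library (median-ratio scaling) moved these to 0.39 and 0.08, and gave 33 higher and 18 lower calls among the 103 genes. With 2 libraries in each group, the smallest p of an exact permutation test is 0.333, so the calls rest on the spread limma shares across genes and groups.

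Of the 28 polymerase subunits, 20 rose and 2 fell. The shares of all genes, 34.2% higher and 15.5% lower, apply to each WT count by complex given below. Polr1c, a subunit that Pol I and Pol III share, was at 7.10 and 5.28 FPKM in WT zygotes and at 244 and 175 in WT 2-cell embryos. This 33.8-fold difference of the means was 4.86 ± 0.33 (SE) on the log2 scale, with an adjusted p of 0.000164 in limma. Its assembly partner Polr1d was already abundant in zygotes, at 166 and 138, and reached 316 and 329, a log2 difference of 1.09 ± 0.23. In WT zygotes the Pol I subunit Polr1e was at 2.45 and 2.30, and in WT 2-cell embryos it was at 52.0 and 51.1 (3.96 ± 0.22). The Pol I core subunits Polr1a and Polr1b also rose, from 1.35 and 1.28 to 4.36 and 6.58 and from the floor to 6.96 and 15.9. Thus all 5 listed subunits of Pol I, with those it shares with Pol III only, were called higher.

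Of the 5 subunits common to the 3 polymerases, 4 rose. Polr2h went from 27.5 and 18.9 FPKM to 236 and 223 (log2 difference 3.27 ± 0.27), Polr2k from 49.6 and 42.7 to 413 and 274, Polr2e from 51.2 and 35.6 to 267 and 246, and Polr2l from 114 and 66.9 to 288 and 227. Polr2f did not pass the test, at 573 and 456 in zygotes and 879 and 847 in 2-cell embryos. The exons of Polr2h overlap those of Clcn2 on the other strand in the mm9 annotation, and the library preparation does not keep strand.

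Subunits that only Pol II uses split. Polr2b, Polr2d and Polr2m were called higher, and Polr2c and Polr2g lower. Polr2b rose from 10.6 and 10.8 FPKM to 51.1 and 38.5 (1.95 ± 0.20). Polr2m, a Pol II-bound protein also called Gdown1, rose from 2.67 and 2.22 to 35.0 and 32.5. Polr2d and Polr2g, which together form the stalk of the enzyme, moved apart: Polr2d rose from 135 and 126 to 235 and 241, and Polr2g fell from 398 and 248 to 144 and 140. Polr2a was at 1.54 and 1.16 in zygotes and at 8.89 and 6.50 in 2-cell embryos without overlap, but with a log2 difference of 1.88 ± 0.71 it did not pass (adjusted p = 0.0706 in limma).

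Pol III had 8 of its 10 own subunits called higher, including Polr3b, Polr3c, Polr3d, Polr3e and Polr3k. Polr3g, a form of the peripheral subunit linked to stem cells and early embryos, rose from 3.28 and 2.57 FPKM to 31.0 and 23.8 (2.85 ± 0.22). Its paralog Polr3gl rose from 1.89 and 1.61 to 3.23 and 4.03. Polr3a, at 13.5 and 13.3 and then 23.2 and 17.2, and Polr3f did not pass. TFIIIC, which places the Pol III initiation factor on transfer RNA genes, had 3 of 6 subunits called higher. Gtf3c5 was at the floor in all zygote libraries and at 30.9 and 43.1 in WT 2-cell embryos, at least 37.0-fold higher. Gtf3c6 rose from 5.19 and 4.03 to 87.5 and 82.5, and Gtf3c4 from the floor to 12.4 and 10.9. Gtf3c5 and Gtf3c4, at the floor in zygotes, could only rise in this table. Gtf3c1, Gtf3c2 and Gtf3c3 and the 5S-specific factor Gtf3a did not pass.

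Among the Pol II general factors, 6 of 13 rose and 4 fell, against 34.2% and 15.5% of all genes. Gtf2b, the factor TFIIB that bridges the TATA-binding protein and Pol II, was at 1161 and 836 FPKM in WT zygotes and at 137 and 115 in WT 2-cell embryos. The log2 difference was −2.97 ± 0.36, the most negative of the 103 genes. In TFIIA the ratio of 2 paralogs changed. Gtf2a1l, its germ-cell form, fell from 54.1 and 61.8 to 6.20 and 8.04 (−2.87 ± 0.35), while Gtf2a1 rose from 58.1 and 75.0 to 98.8 and 126 (0.75 ± 0.23). The smaller rise of Gtf2a1 was not called after median-ratio scaling. The ratio of Gtf2a1 to Gtf2a1l was 1.08 and 1.21 in the WT zygote libraries and 15.9 and 15.6 in the WT 2-cell libraries. Gtf2a2, the small TFIIA subunit, fell from 538 and 733 to 312 and 280.

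TFIIH, which opens promoter DNA and also serves excision repair, moved in both directions. Gtf2h4 rose from 1.93 and 1.37 FPKM to 39.9 and 39.2 and Gtf2h5 from 24.0 and 23.5 to 127 and 116, whereas Gtf2h2 fell from 40.8 and 41.6 to 11.2 and 12.6 (−1.71 ± 0.23). Gtf2e1 of TFIIE rose from 7.09 and 7.96 to 40.6 and 40.5, while its partner Gtf2e2 was at 48.0 and 43.5 and then 44.5 and 50.1, a difference of 0.05 ± 0.22. Both TFIIF subunits were called higher, Gtf2f1 with 1.61 ± 0.33 and Gtf2f2 with 0.79 ± 0.18. In the TFII-I family Gtf2i rose from the floor to 15.4 and 11.4.

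Of the 22 TAF genes, 7 rose and 2 fell, against 34.2% and 15.5% of all genes, so higher calls were no more frequent than among all genes. Taf1d, part of the Pol I selectivity factor SL1, rose from 52.1 and 57.1 FPKM to 587 and 560 (3.37 ± 0.21), although its exons overlap an annotated gene on the other strand. The SAGA-associated Taf5l rose from 2.29 and 1.76 to 33.2 and 22.4, and Taf6l was also called higher. In TFIID, which recognises the core promoter, Taf2, Taf11, Taf4b and Taf7l rose, and Taf5 and Taf9b fell. Taf4b, a gonad-enriched form of Taf4a, rose from 7.47 and 10.0 to 32.3 and 32.4, while Taf4a was at 26.9 and 41.3 and then at 23.2 and 22.1. Thus Taf4a exceeded Taf4b 3.60- and 4.12-fold in WT zygotes but was at 0.719 and 0.680 of it in WT 2-cell embryos. Taf12, shared by TFIID and SAGA, was at 128 and 120 and then at 137 and 132.

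Mediator had 9 of 30 subunits called higher and 6 lower, against 34.2% and 15.5% of all genes. Higher calls were thus no more frequent than among all genes. After median-ratio scaling the listed head, with Med27 to Med30, had 2 higher and 5 lower calls. The middle then had 1 and 1, and the tail and scaffold 2 and 2. Higher calls outnumbered lower ones in none of these modules on that scale. Med29 rose most of all 103 genes, from 1.30 and 1.00 FPKM to 171 and 145, a log2 difference of 6.21 ± 0.34 with 1 zygote library at the floor. Subunits called lower included Med22 (140 and 119.2 to 22.7 and 26.2, −2.36 ± 0.20), Med30 (671 and 937 to 237 and 163), Med27, Med17 and Med28. Among middle subunits Med7 rose from 19.4 and 15.6 to 82.6 and 103, and Med10 fell from 714 and 663 to 255 and 255. Med14, the scaffold of the complex, rose from 12.3 and 11.5 to 39.4 and 35.6. Med1, the subunit bound by nuclear receptors, was at 34.7 and 32.2 and then at 47.1 and 50.8, which did not pass. No gene of the kinase module was called.

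**Figure D2:**
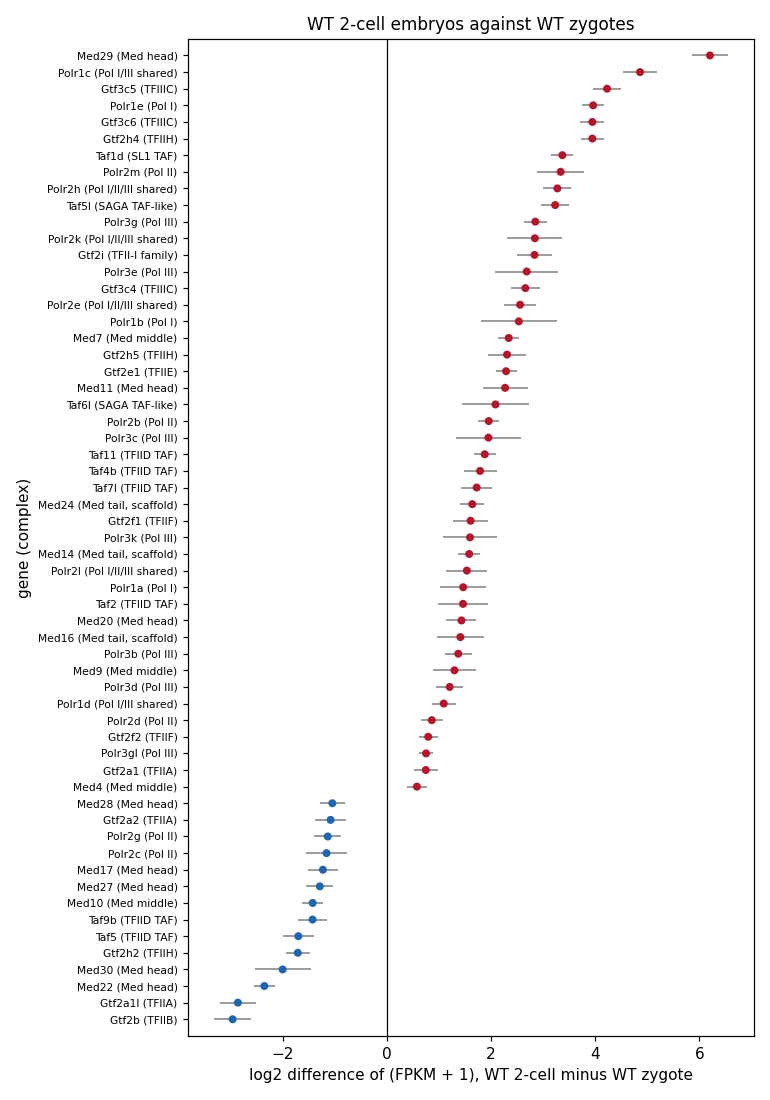
Points give the log2 difference of (FPKM + 1) between WT 2-cell embryos and WT zygotes for 59 of the genes called by limma, red for higher and blue for lower, and bars give the SE (2 libraries per group). Med29, Polr1c and Gtf3c5 stand at the top and Gtf2a1l and Gtf2b at the bottom, with values between 6.21 and −2.97.

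The WT calls depended on single libraries in number but not in direction for the named genes. Without WT zygote replicate 2 there were 30 higher calls, and without either cKO 2-cell replicate there were 57. The lower calls ranged from 8 without WT 2-cell replicate 2 to 20 without either cKO 2-cell replicate. Of the 46 higher genes 26 were called in all 8 fits that left out 1 library, and of the 14 lower genes 8 were, Gtf2a1l, Gtf2b, Gtf2h2, Med10, Med22, Med27, Taf5 and Taf9b.

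In zygotes, no difference between WT and cKO embryos passed the test for these genes. limma called 0 higher and 0 lower of the 103, against 0.0208% and 0% of all genes, and at an unadjusted p under 0.05 there were 2 higher (Polr2d and Polr2b) and 0 lower, where 2.25% and 0.584% of all genes reached that level. Polr2d was at 135 and 126 FPKM in WT and at 272 and 198 in cKO zygotes, a log2 difference of 0.83 ± 0.21. Polr2b was at 10.6 and 10.8 in WT and at 16.6 and 14.7 in cKO zygotes, a difference of 0.51 ± 0.20. The fold rule also gave 0 and 0, against 0.104% and 0.0486% of all genes. The cKO libraries lay above both WT libraries for 15 genes (14.6%), against 15.8% of all genes, and below them for 13 (12.6%), against 10.2%. Differences over the 103 genes ran from −0.66 for Med20 to 0.83 for Polr2d. Values such as those of Gtf2b, at 1161 and 836 in WT and 1195 and 855 in cKO zygotes, overlapped.

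At the 2-cell stage more of these genes were higher than lower in cKO embryos by limma and by non-overlap of libraries as deposited, but not by the 3-fold rule. Among all genes of the table more were lower by each of these measures. limma called 15 genes higher (14.6%), against 6.16% of all genes, and 8 lower (7.77%), against 24.6%. By the 3-fold rule Gtf2h2, Polr2i and Polr2k were higher (2.91%, against 2.84% of all genes), and Gtf2ird1, Med25, Polr3gl and Taf9b were lower (3.88%, against 13.5%). Both cKO libraries lay above both WT libraries for 36 genes (35.0%), against 14% of all genes, and below them for 26 (25.2%), against 43.4%. The median log2 difference was 0.21 over the 103 genes and −0.30 over all genes as deposited, 0.66 and −0.03 after median-ratio scaling, and −0.04 and −0.45 after scaling to equal sums. The median of the 103 genes therefore changed sign with the scale, while it lay above that of all genes under each of the 3 scales. Among genes above the floor in all 4 libraries it was 0.25 over 97 of the 103 genes and −0.33 over all 9086.

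The 2-cell calls depended on how the spread of the libraries was modelled. When each group was given its own weight, only Gtf2h2 and Gtf2ird2 remained among the higher genes and Taf9b among the lower. Gtf2ird2 was at the floor in every library outside the cKO 2-cell group, so it is in the table only through that group. Values at the floor do not vary, which made its SE small (0.066), so its calls in this and the other settings carry no weight. With the 4 2-cell libraries alone, 0 of the 103 genes passed in either direction. Median-ratio scaling gave 31 higher and 2 lower calls, the latter Polr3gl and Taf9b. Leaving out 1 library gave 5 higher calls without WT 2-cell replicate 2, 6 without WT 2-cell replicate 1, 9 without either WT zygote replicate and 10 without either cKO zygote replicate. It gave 24 without cKO 2-cell replicate 1 and 27 without cKO 2-cell replicate 2. The lower calls were 4 without either WT 2-cell replicate or either cKO zygote replicate, 5 without either WT zygote replicate, 9 without cKO 2-cell replicate 2 and 23 without cKO 2-cell replicate 1. Gtf2f2, Gtf2h2, Gtf2ird2 and Polr3g were called higher, and Gtf2a1, Polr3gl and Taf9b lower, in all 8 of these fits.

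Among the genes called in every such fit were a TFIIH subunit and members of paralog pairs. Gtf2h2 of TFIIH, which in WT had fallen from zygote to 2-cell stage, was at 11.2 and 12.6 FPKM in WT and at 59.8 and 40.5 in cKO 2-cell embryos. The 4.22-fold difference was 1.97 ± 0.23 on the log2 scale (adjusted p = 0.00303 in limma), while WT zygotes had values of 40.8 and 41.6. Taf9b was at 52.2 and 36.6 in WT and at 7.54 and 12.4 in cKO embryos, 4.44-fold lower by the means (−2.06 ± 0.28, adjusted p = 0.00483 in limma). Taf9, its paralog in TFIID and SAGA, was at 1127 and 971 in WT and at 1936 and 3178 in cKO (1.25 ± 0.30), with 2 gene models of that name in the mm9 annotation. The ratio of Taf9 to Taf9b was 21.6 and 26.5 in the WT and 257 and 255 in the cKO 2-cell libraries.

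Pol III showed the same kind of divergence in its paralogous subunit. Polr3g was at 31.0 and 23.8 FPKM in WT and at 58.7 and 59.4 in cKO embryos (1.09 ± 0.22), while Polr3gl was at 3.23 and 4.03 in WT and at 1.18 and 1.21 in cKO (−1.07 ± 0.14). The ratio of Polr3g to Polr3gl was 9.58 and 5.91 in WT and 49.6 and 49.0 in cKO. In the cKO libraries Polr3gl lay close to the floor of 1, so the size of this ratio and the agreement of the replicates are not reliable. Polr3gl shares exon sequence with an annotated gene on the other strand. The other Pol III subunits did not pass, and neither did TFIIIC subunits other than Gtf3c3, which was at 12.5 and 12.1 in WT and at 36.8 and 28.9 in cKO (1.34 ± 0.27).

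TFIIA was lower in cKO 2-cell embryos in both of its ubiquitous genes. Gtf2a1 was at 98.8 and 126 FPKM in WT and at 43.0 and 47.7 in cKO (−1.28 ± 0.23, adjusted p = 0.0106 in limma), and Gtf2a2 was at 312 and 280 in WT and at 87.6 and 144 in cKO (−1.39 ± 0.30). Gtf2a1l did not differ beyond its spread, at 6.20 and 8.04 in WT and 5.40 and 11.6 in cKO. TFIIB RNA was at 137 and 115 in WT and at 55.2 and 99.6 in cKO, without overlap but not past the test (−0.75 ± 0.36). After median-ratio scaling Gtf2a1 and Gtf2a2 were no longer called. Members of TFIIE, TFIIF and TFIIH were called in the other direction: Gtf2f2 was at 115 and 132 in WT and at 254 and 238 in cKO, Gtf2e2 at 44.5 and 50.1 and at 99.5 and 71.1, and Gtf2h1 at 44.4 and 44.2 and at 93.4 and 64.6. In the TFII-I family Gtf2ird1 was at 3.91 and 4.13 in WT and at 1.52 and 1.10 in cKO, and Gtf2ird2 was at the floor in WT and at 2.04 and 1.78 in cKO. Exons of Gtf2ird2 overlap Ncf1 on the other strand.

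**Figure D3:**
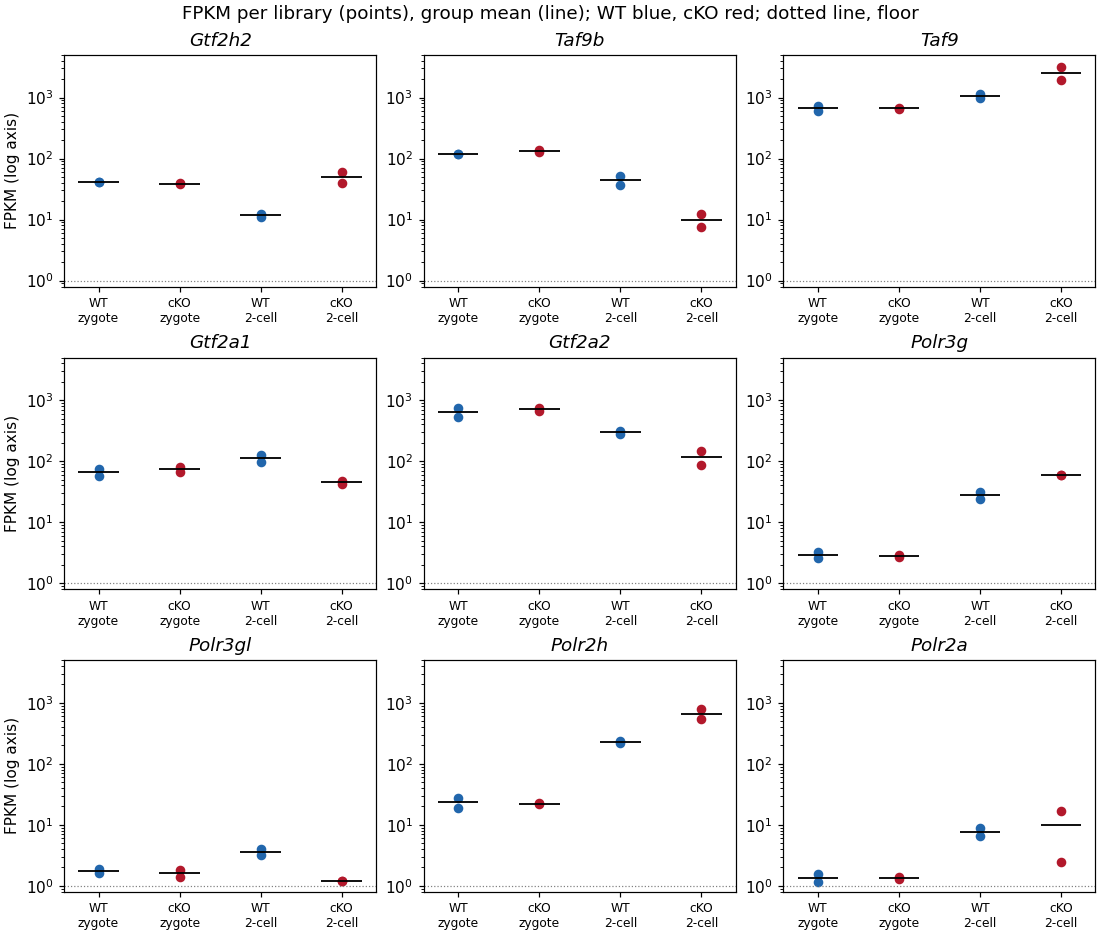
Points give FPKM (log axis) in each library for 9 of the genes, blue for WT and red for cKO, lines give the group means of 2 libraries, and the dotted line is the floor. Gtf2h2 in cKO 2-cell embryos (59.8 and 40.5) stands beside zygote values of 38.4 to 41.6, Taf9b and Polr3gl are lower and Taf9 and Polr3g higher in cKO than in WT 2-cell embryos, and the cKO 2-cell points of Polr2a (17.1 and 2.47) lie on both sides of WT.

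The polymerases had 4 subunits called higher and 2 lower of 28, where 6.16% and 24.6% of all genes were called. Another count, of subunits without overlap, gave 14 above WT and 3 below, where 14% and 43.4% of all genes lay so. Polr2h, common to all 3 polymerases, was at 236 and 223 FPKM in WT and at 532 and 794 in cKO (1.50 ± 0.27). Polr1d was at 316 and 329 in WT and at 644 and 702 in cKO (1.06 ± 0.23). Of the Pol II stalk pair, Polr2d was higher and Polr2g lower. Polr2d was at 235 and 241 in WT and at 501 and 479 in cKO (1.04 ± 0.21), and Polr2g at 144 and 140 in WT and 63.3 and 66.9 in cKO (−1.11 ± 0.26). In zygotes Polr2d already lay higher in cKO (0.83 ± 0.21, not past the test), and its genotype difference changed by 0.21 ± 0.30 between the stages. Polr2g was not called after median-ratio scaling. Polr2i and Polr2k passed the fold rule but not limma, with cKO values of 147 and 385 and of 574 and 1794 that were themselves far apart. The median log2 difference of the 28 subunits was 0.49 as deposited, 0.94 after median-ratio and 0.24 after sum scaling.

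The largest subunits of Pol I and Pol II were among the 19 genes whose cKO replicates differed by more than 3-fold, whereas that of Pol III was not. Polr2a was at 17.1 and 2.47 FPKM, Polr1a at 7.96 and 2.46, and Polr1b at 17.1 and 2.81, and in each case the WT values lay between the 2 cKO values. No difference from WT could be shown for them at this spread, with log2 differences of −0.12 ± 0.71, −0.20 ± 0.44 and −0.48 ± 0.73. Polr3a, at 35.9 and 28.2 in cKO against 23.2 and 17.2 in WT, and Polr3b, at 18.8 and 13.0 against 10.4 and 11.4, lay above WT without passing the test.

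Among the 22 TAF genes both cKO libraries lay above both WT libraries for 6 and below them for 7, and among the 30 Mediator genes for 9 and 10. The shares of all genes were 14% above and 43.4% below. Of the TAF genes 2 were called higher, Taf9 and the SL1 subunit Taf1b (15.7 and 19.6 FPKM in WT, 49.2 and 32.9 in cKO), and 2 lower, Taf9b and Taf7l. Taf7l, a germ-cell paralog of Taf7, was at 6.04 and 5.20 in WT and at 2.90 and 1.00 in cKO, while Taf7 was at 157 and 133 in WT and 203 and 317 in cKO. Taf4b was at 32.3 and 32.4 in WT and at 81.3 and 45.1 in cKO, without overlap but not past the test (0.88 ± 0.32). Of the Mediator genes Med11, Med29 and Med6 were called higher, and Med15 was called lower. Med29 was at 171 and 145 in WT and at 311 and 536 in cKO, and Med15 was at 30.7 and 25.6 in WT and at 14.4 and 6.27 in cKO (−1.45 ± 0.37). Med25 was at 25.8 and 30.6 in WT and at 12.7 and 1.00 in cKO, past the fold rule but not limma. Medians of the log2 difference were −0.13 for TAF genes and −0.05 for Mediator as deposited, became 0.21 and 0.33 after median-ratio scaling, and were −0.35 and −0.22 after sum scaling, so neither group had a direction that held on every scale.

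**Figure D4:**
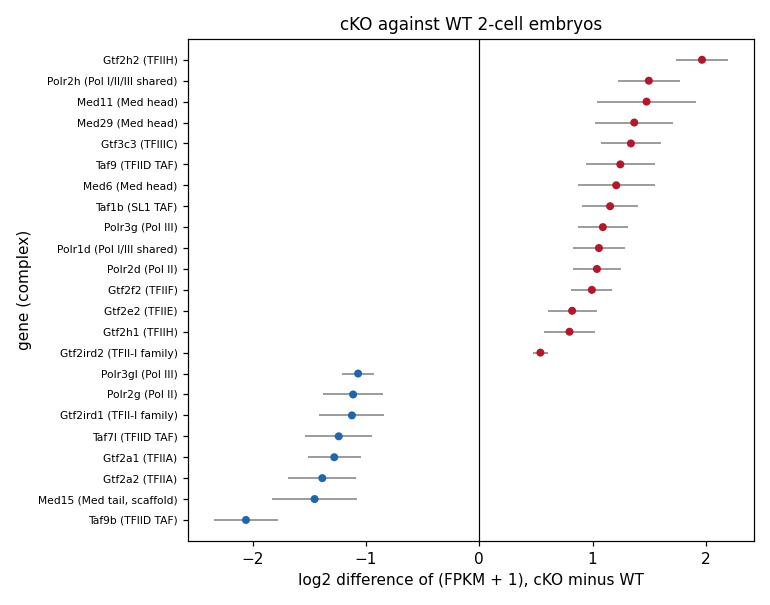
Points give the log2 difference of (FPKM + 1) between cKO and WT 2-cell embryos for the 23 genes called by limma, red for higher and blue for lower in cKO, and bars give the SE (2 libraries per group). Values run from 1.97 for Gtf2h2 to −2.06 for Taf9b, and only Gtf2h2, Gtf2ird2 and Taf9b stayed called when each group had its own weight. Gtf2ird2 is at the floor in every library outside the cKO 2-cell group.

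Transcript length moved with the difference between the cKO 2-cell replicates. By longest coding transcript in the mm9 annotation, the median log2 difference of replicate 2 minus replicate 1 was 0.58 for the 11 genes up to 1000 bases, 0.087 for the 27 up to 2000, −0.32 for the 31 up to 3500 and −0.82 for the 33 longer ones. Over all genes above the floor in the 4 libraries, the same medians were 0.73, 0.066, −0.22 and −0.53. Against the WT mean, cKO replicate 1 had medians of 0.77, 0.46, 0.39 and 0.17 in these 4 classes, and replicate 2 had 1.01, 0.27, 0.0020 and −0.58. Spearman's coefficient with length over 102 genes, which share libraries and are not independent replicates, was −0.056 for replicate 1 minus WT and −0.39 for replicate 2 minus WT. The part of length in the genotype differences was not tested. Genes called in every fit without 1 library included transcripts of 1427 bases (Polr3gl), 1656 (Gtf2h2), 2633 (Taf9b), 3054 (Polr3g) and 5410 (Gtf2a1).

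**Figure D5:**
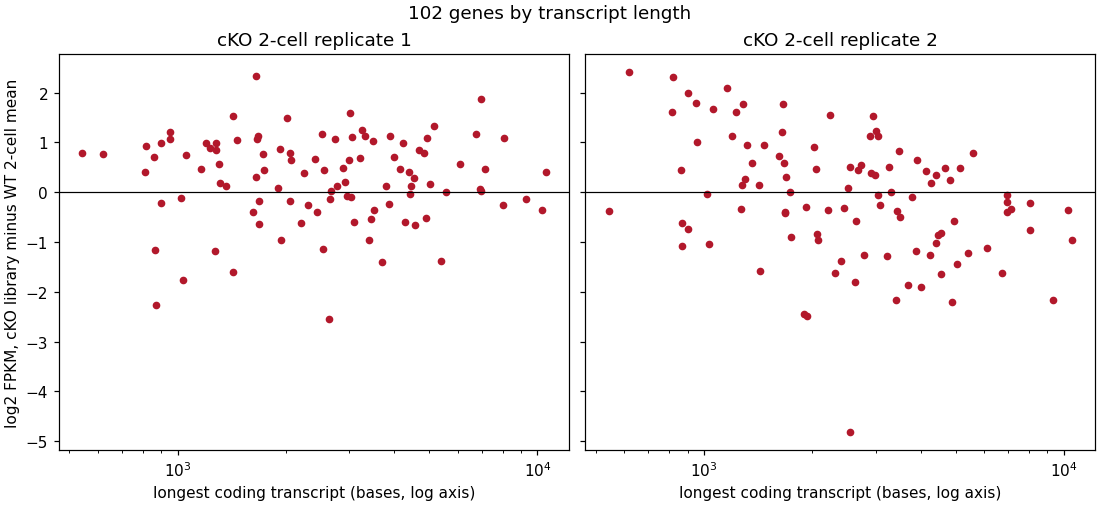
Each point is 1 of 102 genes, with the longest coding transcript in bases on a log axis and, on the vertical axis, log2 FPKM of a cKO 2-cell library minus the mean of the WT 2-cell libraries (replicate 1 left, replicate 2 right). Longer genes lie lower in replicate 2 (Spearman −0.39) and show no such slope in replicate 1 (−0.056).

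The genotype difference itself changed between the stages for 6 genes. By the limma interaction of stage and genotype, 3 genes (2.91%) shifted upwards in cKO at the 2-cell stage relative to zygotes, against 1.58% of all genes, and 3 (2.91%) downwards, against 10.2%. They were Gtf2h2, Gtf2f2 and Gtf2ird2, and Taf9b, Gtf2a1 and Polr3gl. Gtf2ird2 was at the floor in every library outside the cKO 2-cell group, so its call rests on values that cannot vary. Gtf2h2 had an interaction of 2.05 ± 0.32 and Taf9b of −2.22 ± 0.40 on the log2 scale. At an unadjusted p under 0.05 there were 10 and 8 genes, where 5.34% and 25.5% of all genes reached that level. Leaving out any 1 of the 4 zygote libraries left 0 genes in both directions, and leaving out cKO 2-cell replicate 1 gave 17 and 18.

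The genes that rose in WT embryos were for the most part not called between genotypes. Of the 46 that rose, 36 were not called at the 2-cell stage, 7 were higher in cKO and 3 were lower. Of the 14 that fell, 10 were not called, 3 were lower in cKO and Gtf2h2 was higher. Both comparisons use the same WT 2-cell libraries, so these counts are given side by side only. Among the genes that rose and were not called, Polr1c was at 233 and 401 FPKM in cKO against 244 and 175 in WT. Gtf3c5 was at 33.2 and 24.4 against 30.9 and 43.1, and Gtf3c6 at 78.5 and 83.4 against 87.5 and 82.5.

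Partners of these complexes whose names do not follow the rule were read from a separate list, of which 57 genes were in the table. In WT embryos 28 of them were higher and 7 lower at the 2-cell stage, against 34.2% and 15.5% of all genes, with a median log2 difference of 1.02. Between genotypes at the 2-cell stage 8 were higher and 5 lower in cKO, against 6.16% and 24.6% of all genes, with a median of 0.075. The Pol I subunits Znrd1 and Twistnb, listed under older names, were both higher. Znrd1 was at 89.8 and 37.2 FPKM in WT and at 324 and 892 in cKO. Twistnb was at 39.5 and 34.2 in WT and at 87.4 and 81.5 in cKO. Ccnh, the cyclin of the TFIIH kinase, was at 11.3 and 9.48 in WT and at 54.6 and 38.2 in cKO 2-cell embryos. Tcea1, Ell2, Snapc5, Ccnc and Tfam were also higher. Tbpl2, the oocyte paralog of the TATA-binding protein, was at 3.67 and 3.29 in WT and at the floor in both cKO libraries, and Hexim1, Ell3, Rpap2 and Tfb1m were also lower. The TATA-binding protein gene Tbp was at 65.5 and 113 in WT and at 227 and 102 in cKO, which overlapped.

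In the mm9 annotation (GENCODE M1), Med29 lies on chromosome 7 from 29171165 to 29177727, Polr1c on chromosome 17 from 46380869 to 46385003, Gtf3c5 on chromosome 2 from 28421891 to 28439271, Gtf2h2 on chromosome 13 from 101230173 to 101262534, and Polr3g on chromosome 13 from 81812842 to 81850012, all on the minus strand. Polr3gl lies on chromosome 3 from 96381795 to 96398104, Taf9b on chromosome X from 103402222 to 103416497 and Gtf2a1 on chromosome 12 from 92794356 to 92828927, also on the minus strand. Gtf2b lies on chromosome 3 from 142428190 to 142446567 and Gtf2a1l on chromosome 17 from 89068000 to 89114492, on the plus strand. These spans are whole genes with exons and introns, and the table gives 1 value per gene.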

How the data were processed

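RNA-seq was analysed in 8 libraries, 2 per group, grouped by the sample labels. The ChIP-seq part of the series was not used. The authors trimmed reads to 50 bp, mapped them to mm9 with TopHat2 2.1.1 and computed FPKM with Cufflinks 2.2.1. The gene annotation and any further normalization are not given in the sources used here. The authors deposited FPKM values, with genes under 1 in all samples removed and lower values set to 1. Depth is unknown, and precision rests on 2 libraries per group. Nothing states whether libraries came from separate litters, so p-values measure the spread between these libraries, which may be technical.

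limma 3.58.1 in R 4.3.3 was fitted to log2(FPKM + 1) of all 14392 genes, with 4 groups in 1 model, 4 residual degrees of freedom, a trended prior and Benjamini-Hochberg adjustment at 0.05. Differences on this scale understate changes of low genes. The study's rule of means differing more than 3-fold and non-overlap of libraries were counted beside it. Python 3.11.15, numpy 2.4.6, pandas 2.3.3 and matplotlib 3.10.9 were used otherwise. The model was tested on simulated data in which all groups had the same spread, taken from the WT 2-cell libraries. That test did not cover the unequal spread of the real groups. The genes, complexes, partners and marker lists were chosen with earlier results of these data known. Figure labels place Med27, Med28, Med29 and Med30 in the Mediator head, as the list of complexes did. Other placements of these subunits were not weighed. Genes were named as largest subunits or paralogs, as the 8 largest differences per comparison and direction among called genes without overlap, as the highest and lowest of a complex, when at the floor throughout a group, or when past the genotype fold rule. Other genes are named in lists of all calls of a complex or after their values were seen. Alternatives were another scaling, pseudocount, filter, threshold, group weights, a replicate block, 2 groups alone and leaving out each library.

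Coordinates and lengths come from GENCODE M1 on mm9, with lengths for 102 of the 103 genes and 92.7% of all genes. Exon overlaps are mentioned in the Results for some genes only. Other named genes also overlap annotated genes, among them Polr2b (Igfbp7), Polr2c (Dok4), Polr2j (Lrwd1), Taf5 (Usmg5), Taf4a, Med7, Med10 and Med27. Promoters are from RefSeq on GRCm38.p6, where coordinates differ from mm9. Motifs were searched on both strands. The values of 1 of the 103 genes are not reported here, although counts and medians include it.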

Additional observations from a re-analysis of the deposited data

Results flagged for a closer look

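The difference between genotypes changed with stage for 6 of the 103 genes by the limma interaction of stage and genotype, and these are listed because that difference was itself tested. It was more positive at the 2-cell stage than in zygotes for 3 genes, with log2 interactions of 2.05 for Gtf2h2, 1.07 for Gtf2f2 and 0.54 for Gtf2ird2. It was more negative for 3 genes, with −2.22 for Taf9b, −1.43 for Gtf2a1 and −0.99 for Polr3gl. With each group given its own weight Gtf2h2, Gtf2ird2 and Taf9b remained past the threshold. Gtf2ird2 was at the floor in every library outside the cKO 2-cell group, so its result rests on values that cannot vary. After median-ratio scaling the 3 positive interactions remained and the 3 negative ones did not. Without any 1 of the 4 zygote libraries 0 of the 6 passed.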

How the results depend on the processing

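With median-ratio scaling, limma called 31 genes higher and 2 lower between genotypes at the 2-cell stage, and 8 and 0 in the interaction of stage and genotype. With group weights it called 2 and 1 at the 2-cell stage, and 1 gene was negative in the interaction. With 2 groups alone it called 0 and 0 at the 2-cell stage. The fold rule gave 16 lower genes at 2-fold and 11 with median-ratio scaling for the WT transition. Between genotypes at the 2-cell stage it gave 17 higher and 11 lower at 2-fold, 1 and 0 when every library had to pass, 15 and 2 with median-ratio scaling, and 1 and 7 with sum scaling, and 2 lower with a pseudocount of 1. The cause of these moves was not tested. The median log2 difference became 0.39 for the WT transition with median-ratio scaling, and 0.66 with median-ratio and −0.038 with sum scaling for the 2-cell genotypes.

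Leaving out 1 library at a time gave 30 to 57 higher and 8 to 20 lower genes by limma for the WT transition, 5 to 27 and 4 to 23 between genotypes at the 2-cell stage, and 0 to 17 and 0 to 18 in the interaction. The fold rule gave 1 to 10 higher and 3 to 12 lower genes between genotypes at the 2-cell stage, and the median difference ran from −0.10 to 0.41. For the zygote comparison limma and the fold rule gave 0 calls among the 103 genes under each of these alternatives. Where an arm was left with 1 library, that library was assumed to vary like the other groups.

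Same-numbered libraries of the 2 genotypes deviated together in zygotes (correlation 0.497) but not at the 2-cell stage (−0.239), so the numbers were not taken to pair the samples. With a replicate block, limma called 44 higher and 14 lower genes for the WT transition, 11 and 9 between genotypes at the 2-cell stage and 2 and 2 in the interaction. A crossed replicate block at the 2-cell stage, added after seeing the data, gave 17 and 9 between genotypes. Of 38 differences of single named genes, 15 passed under every alternative. Of 560 recomputed values of these differences 420 stayed past the threshold, 140 lost it and 0 changed sign.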
